A study of Mus musculus with 2 samples.

Results

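The 10 genes described here mark macrophages and leukocytes in general. They were Adgre1, Lyz2, Csf1r, Cd68, Ctss, Ptprc, Fcgr3, Tyrobp, Fcer1g and Lsp1, and were taken by their symbols from a list drawn up with earlier results of these data known. All 10 were found among the 23183 gene symbols of the data. Mouse cavernous endothelial cells (MCECs), a primary culture of cells sprouting from mouse penile tissue, gave 1 RNA library per condition. Both cultures were kept in high glucose (HG, 30 mM). The first received the vehicle, HEPES-buffered saline (HG+HBS), and the second received PC-NVs (HG+PC-NVs), vesicle-mimetic particles made by forcing cultured cavernous pericytes of 8-week-old male C57BL/6J mice through filters, at 1 µg/mL. RNA was isolated 24 hours after PC-NVs and 72 hours after the start of high glucose by the study's methods, while the sample labels give 5 days of glucose. MCECs were used at passages 2 to 4, and how many animals or dishes stand behind a library is not given in the sources used here. Since glucose was the same, the libraries are called HBS and PC-NVs below. With 1 library per condition, no difference had a replicate check and no p-value was computed.

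The labelled cell type was compared with its defining markers. Of 17 endothelial markers, 11 were below 1 FPKM (fragments per kilobase of transcript, scaled to sequencing depth) in both libraries. Pecam1, the endothelial adhesion molecule CD31, was at 1.05 FPKM with HBS and 0.938 FPKM with PC-NVs. Cdh5, which encodes VE-cadherin, was at 5.05 and 5.73 FPKM. The highest of the endothelial list were Eng, a TGF-beta co-receptor that stromal cells also express, at 29.01 and 21.4 FPKM, the adhesion gene Esam at 17.4 and 11.7 FPKM, and Egfl7 at 9.48 and 8.57 FPKM. Genes that mark fibroblasts were higher, with the proteoglycan gene Dcn at 623 and 1283 FPKM, Thy1 at 549 and 412 FPKM, the collagen gene Col1a2 at 312 and 198 FPKM and Pdgfra at 149 and 129 FPKM. The summed level of the 17 endothelial markers was 66.2 and 51.3 FPKM, and that of 10 fibroblast markers 2206 and 2492 FPKM. Of those 10, only Dcn was higher by any amount with PC-NVs and 9 were lower, with a median log2 difference of -0.28. Among all 12109 genes with at least 1 FPKM in at least one library, 48.3% were higher and 51.7% lower. The higher sum of the fibroblast markers rests on Dcn. Endothelial markers were thus in part detected and in part below 1 FPKM, and the 10 genes are described here for each culture as a whole. Fewer cells of a type and less RNA per cell cannot be told apart in such bulk libraries.

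Macrophages are tissue-resident phagocytes of the myeloid lineage. They depend on the growth factor receptor encoded by Csf1r, digest what they engulf in lysosomes, and sense antibody-coated particles through Fc receptors. Activating Fc receptors such as Fcgr3, and several other myeloid receptors, pass their signal through small adaptor proteins, Fcer1g and Tyrobp, whose ITAM motifs recruit tyrosine kinases. Ptprc encodes CD45, the surface phosphatase carried by nearly all leukocytes, and Lsp1 an actin-binding protein of leukocytes that endothelial cells also make.

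Fcer1g and Fcgr3 encode subunits of the same receptor complex and lie on chromosome 1 of GRCm38 (GENCODE M21, used for all gene positions here), from 171229572 to 171234365 and from 171051174 to 171064935, both on the reverse strand. Their levels differed in opposite directions between the libraries, so their promoter windows are shown. Each covers 250 bases before and 50 after the RefSeq gene start (build GRCm38.p6), at chr1:171234300-171234599 for Fcer1g and chr1:171059345-171059644 for Fcgr3, read 5′ to 3′ on the reverse strand. The Fcgr3 window belongs to a RefSeq start that lies within the GENCODE gene and not at its 5′ end. A second Fcgr3 window, at chr1:171059354-171059653, overlaps it and is not shown. Capitals mark GAGGAA on either strand, the core of the PU-box bound by the myeloid factor PU.1.
Fcer1g: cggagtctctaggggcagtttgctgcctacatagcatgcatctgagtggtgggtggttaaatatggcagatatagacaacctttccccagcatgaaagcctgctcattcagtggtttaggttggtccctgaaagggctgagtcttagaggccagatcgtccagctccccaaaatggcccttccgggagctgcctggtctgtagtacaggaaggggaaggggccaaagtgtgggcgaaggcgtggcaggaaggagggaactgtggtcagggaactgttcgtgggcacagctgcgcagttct
Fcgr3: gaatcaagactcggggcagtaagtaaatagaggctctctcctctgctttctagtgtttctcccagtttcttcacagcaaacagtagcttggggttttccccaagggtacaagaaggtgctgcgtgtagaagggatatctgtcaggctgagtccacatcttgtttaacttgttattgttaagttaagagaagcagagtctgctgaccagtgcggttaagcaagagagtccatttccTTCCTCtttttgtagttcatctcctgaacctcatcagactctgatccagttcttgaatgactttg
The Fcgr3 window held 1 match, on the opposite strand, and the Fcer1g window held 0. Of the 10 genes, 6 had a promoter window in the table (Lyz2, Cd68, Ctss, Ptprc, Fcgr3 and Fcer1g), and 4 of the 6 held the motif in at least 1 window. These letters occurred in 28.3% of all 32851 windows and for 31.3% of the 27025 genes with one. A match is a description of the sequence alone, and PU.1 binding was not measured.

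The genes were present in both libraries but did not move together. As deposited, 4 of the 10 were higher and 6 were lower with PC-NVs by any amount, against 48.3% higher and 51.7% lower among the 12109 genes with at least 1 FPKM in at least one library. All 10 passed that filter, and all 10 were at or above 1 FPKM in both libraries. Their log2 differences, HG+PC-NVs minus HG+HBS on the log2(FPKM + 1) scale, ran from -1.50 to 2.37 with a median of -0.21, and the median of all genes was -0.01. More than 2-fold higher were 2 of the 10, Adgre1 and Fcer1g, where 2.52% of all genes tested were. More than 2-fold lower were 2 of the 10, Fcgr3 and Lsp1, where 0.867% of all genes tested were. After quantile normalization between the libraries the counts were again 2 and 2, where 2.37% of all genes were higher and 0.917% lower, and 3 of the 10 were higher by any amount, Tyrobp then having a log2 difference of -0.03. The other 6 genes, Lyz2, Csf1r, Cd68, Ctss, Ptprc and Tyrobp, stayed within 2-fold. The summed level of the 10 genes was 487 FPKM with HBS and 417 FPKM with PC-NVs. Lsp1 alone, from 128 to 44.6 FPKM, fell by more than this sum did, so the lower sum rests on that gene.

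**Figure D1:**
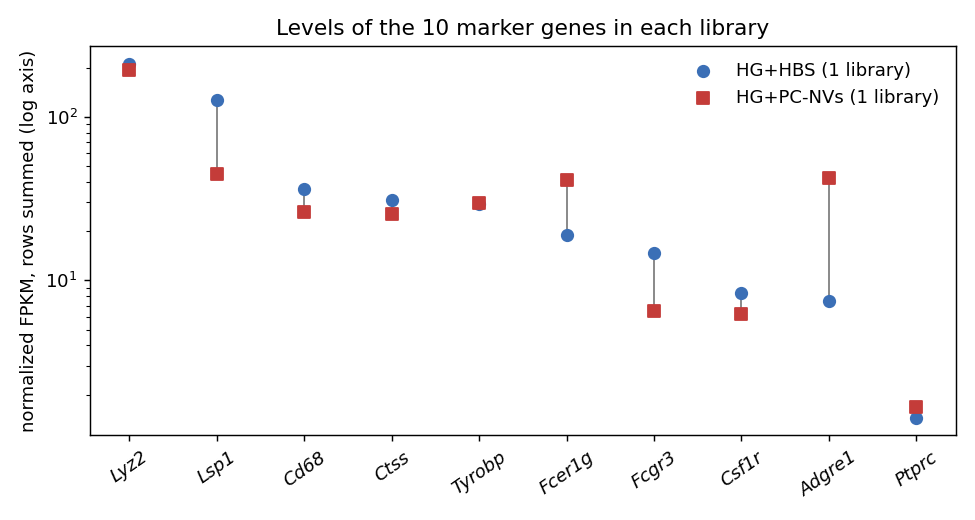
Normalized FPKM on a log axis of each of the 10 genes in the HG+HBS library (blue circles) and the HG+PC-NVs library (red squares), 1 library each, with a grey line joining them. Adgre1 goes from 7.44 to 42.5 FPKM and Lsp1 from 128 to 44.6 FPKM, while the symbols of Tyrobp lie on each other.

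Adgre1 encodes F4/80, an adhesion G protein-coupled receptor used as a surface marker of mouse macrophages, and lies on chromosome 17 from 57358691 to 57483527. It was at 7.44 FPKM with HBS and 42.5 FPKM with PC-NVs. This was the widest gap of the 10 genes, a 5.71-fold higher FPKM with a 95% counting interval of 5.07 to 6.47, from about 321 and 1590 fragments. Here and below the interval is an exact binomial (Clopper-Pearson) one on approximate fragments and covers counting error only, not the spread between cultures. By size of the rise, Adgre1 ranked 54 among the 12109 genes, and it was the only one of the 10 past 4-fold, where 0.619% of all genes were higher and 0.0578% lower. By its level among all symbols it moved from rank 7364 to rank 1989. It made up 1.53% of the summed level of the 10 genes with HBS and 10.2% with PC-NVs.

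Lyz2 encodes lysozyme M, the bacteriolytic enzyme of macrophages and granulocytes, on chromosome 10 from 117277331 to 117282321. It had the highest level of the 10 genes in both libraries, with 212 FPKM with HBS and 193 FPKM with PC-NVs. The ratio was 1.10-fold lower with PC-NVs with a counting interval of 1.05 to 1.15. The log2 difference was -0.13 as deposited and -0.29 after quantile normalization between the libraries, so the scaling moved it by more than the counting interval. Lyz1 lies beside it from 117287797 to 117292868 and encodes lysozyme P. The first 120 bases of the coding sequences of both (GENCODE M21, GRCm38) are shown because reads of near copies can be split between them, with capitals where they differ.
Lyz2: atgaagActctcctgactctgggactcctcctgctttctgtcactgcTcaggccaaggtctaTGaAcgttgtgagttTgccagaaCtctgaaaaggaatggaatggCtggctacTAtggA
Lyz1: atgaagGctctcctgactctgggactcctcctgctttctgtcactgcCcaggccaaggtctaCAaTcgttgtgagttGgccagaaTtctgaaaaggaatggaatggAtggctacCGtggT
Over the 444 bases of each coding sequence, 22 differed. Of 1217 windows of 100 bases, the read length, in the Lyz2 transcript, 1.97% were also found in Lyz1. Lyz1 was at 12.2 and 14.4 FPKM, or 0.0578 and 0.0745 FPKM per FPKM of Lyz2.

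Csf1r encodes the receptor for the macrophage growth factors Csf1 and Il34, and lies on chromosome 18 from 61100598 to 61132149. It was at 8.39 FPKM with HBS and 6.20 FPKM with PC-NVs, 1.35-fold lower with a counting interval of 1.18 to 1.56. Adgre1 and Csf1r were thus at similar levels with HBS, with 0.887 FPKM of Adgre1 per FPKM of Csf1r, and at 6.85 per FPKM with PC-NVs. Exons of Hmgxb3, on the other strand, cover 15.1% of the exonic bases of Csf1r. Hmgxb3 was at 10.4 and 12.3 FPKM, and the kit keeps strand, but whether the counting used it is not given in the sources used here.

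Cd68 and Ctss belong to the lysosome. Cd68 encodes macrosialin, a lysosomal membrane glycoprotein that macrophages carry in large amounts, on chromosome 11 from 69664213 to 69666153. It was at 36.2 FPKM with HBS and 26.3 FPKM with PC-NVs, 1.37-fold lower with a counting interval of 1.21 to 1.57. Ctss encodes cathepsin S, a protease that trims the invariant chain of MHC class II, on chromosome 3 from 95526786 to 95556403. It was at 31.2 and 25.3 FPKM, 1.23-fold lower with a counting interval of 1.08 to 1.40. There were 1.16 FPKM of Cd68 per FPKM of Ctss with HBS and 1.04 with PC-NVs. In each of these genes the higher of 2 transcript rows was lower with PC-NVs and the other was higher. The Cd68 rows went from 33.5 to 23.2 FPKM and from 2.63 to 3.18 FPKM. Those of Ctss went from 29.3 to 21.8 FPKM and from 1.89 to 3.56 FPKM. Of 20 lysosomal genes, 10 were higher and 10 lower by any amount, with a median log2 difference of 0.01. None passed 2-fold (0 of 20), where 2.52% of all genes were higher and 0.867% lower, so that the count is near the background. Ctsl, which encodes cathepsin L, had the largest difference among them, 1.84-fold higher, from 655 to 1206 FPKM. The protease gene Ctsd was at 1495 and 1348 FPKM and the membrane protein gene Cd63 at 1053 and 1206 FPKM.

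Transcripts of Fcgr3 and Fcer1g, which encode subunits of the same receptor complex, differed in opposite directions between the libraries. The proteins were not measured here. Fcgr3 encodes the ligand-binding chain of CD16, a low-affinity receptor for IgG, and was at 14.7 FPKM with HBS and 6.48 FPKM with PC-NVs. This was 2.27-fold lower with a counting interval of 1.79 to 2.88, from about 264 and 101 fragments. Fcer1g, whose promoter window is shown above beside that of Fcgr3, encodes the common gamma chain that Fcgr3 needs to reach the surface. It was at 18.8 FPKM with HBS and 41.1 FPKM with PC-NVs, 2.18-fold higher with an interval of 1.81 to 2.65 from about 171 and 324 fragments. The FPKM of Fcer1g per FPKM of Fcgr3 was therefore 1.28 with HBS and 6.34 with PC-NVs. The lower bounds of both counting intervals lie below 2-fold, so at this depth neither gene was clearly past 2-fold.

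Tyrobp encodes DAP12, the adaptor of Trem2 and related receptors, on chromosome 7 from 30413760 to 30417585. It was at 29.4 FPKM with HBS and 29.5 FPKM with PC-NVs, a ratio of 1.01 with a counting interval of 0.830 to 1.22. The adaptors thus differed from each other, with 0.640 FPKM of Fcer1g per FPKM of Tyrobp with HBS and 1.39 with PC-NVs. Among 16 other Fc receptor and ITAM signalling genes, 11 could be tested, of which 0 were more than 2-fold higher and 1 was more than 2-fold lower, beside 2.52% and 0.867% of all genes. The lower one was Fcgr2b, the inhibitory IgG receptor, at 6.14 FPKM with HBS and 2.29 FPKM with PC-NVs (2.67-fold lower, counting interval 2.11 to 3.41). Fcgr2b and Fcgr3 are near copies in part, and 3.53% of the 1248 windows of 100 bases of Fcgr3 were also found in Fcgr2b. Fcgr4, another IgG receptor gene of this region, was at 2.52 and 2.73 FPKM. Trem2, a lipid-sensing receptor that signals through Tyrobp, was at 22.2 and 14.4 FPKM. The kinase gene Lyn was at 6.23 and 7.93 FPKM and the linker gene Blnk at 8.53 and 9.77 FPKM.

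The remaining markers are not restricted to myeloid cells. Ptprc, on chromosome 1 from 138062861 to 138175708, was the lowest of the 10 genes, at 1.44 FPKM with HBS and 1.67 FPKM with PC-NVs. The ratio was 1.16 with a counting interval of 0.863 to 1.54, from about 98 fragments in each library. Its 3 transcript rows did not keep their proportions. The highest row went from 0.723 to 1.54 FPKM, the next from 0.597 FPKM to a value close to 0, and the lowest from 0.123 to 0.138 FPKM.

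Lsp1, on chromosome 7 from 142460809 to 142494867, was at 128 FPKM with HBS and 44.6 FPKM with PC-NVs. This was 2.86-fold lower with a counting interval of 2.67 to 3.08, and Lsp1 ranked 25 among the 12109 genes by size of the fall. It has 6 transcript rows, of which 2 were listed at 0 in both libraries. The other 4 rows were each lower with PC-NVs. The higher pair went from 67.9 to 26.3 FPKM and from 50.4 to 14.5 FPKM, and the lower pair from 5.98 to 1.18 FPKM and from 3.46 to 2.59 FPKM. In HG+HBS there were 88.5 FPKM of Lsp1 per FPKM of Ptprc, against 26.6 with PC-NVs. Its share of the summed level of the 10 genes was 26.2% with HBS and 10.7% with PC-NVs.

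**Figure D2:**
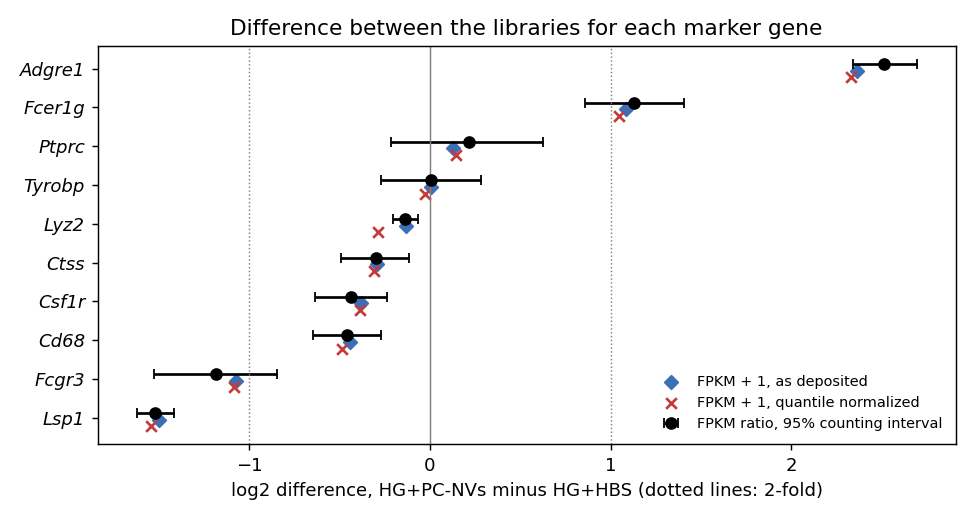
Log2 difference, HG+PC-NVs minus HG+HBS, of each of the 10 genes, with black points for the FPKM ratio and bars for its 95% counting interval, blue diamonds for log2(FPKM + 1) as deposited and red crosses after quantile normalization (1 library per condition). Adgre1 and Fcer1g lie right of the 2-fold line, Fcgr3 and Lsp1 left of the opposite one, and the intervals of Ptprc and Tyrobp span 0.

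**Figure D3:**
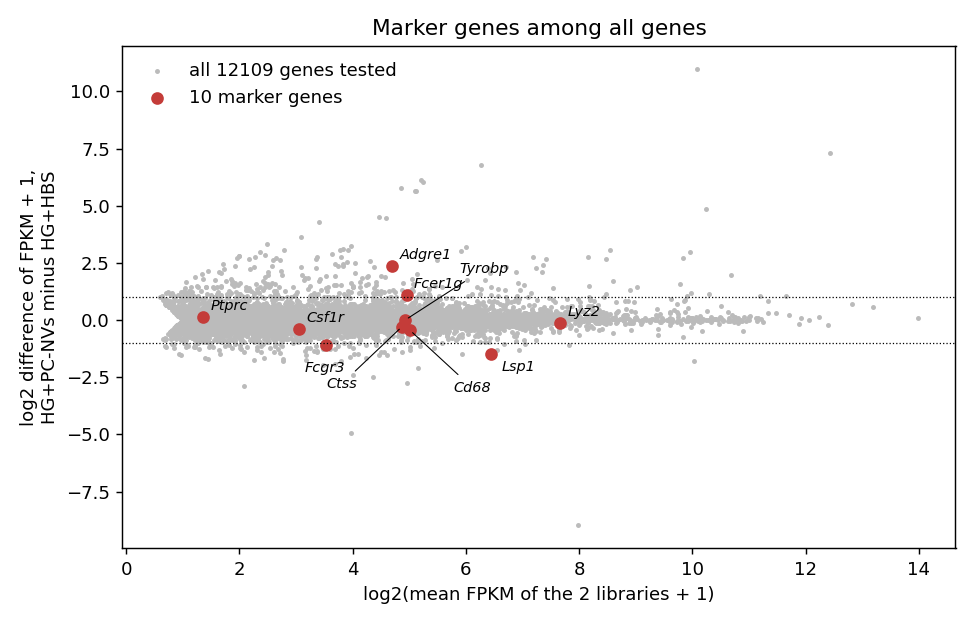
Log2 difference of FPKM + 1 (vertical axis) against log2 of the mean FPKM of both libraries + 1 (horizontal axis) for all 12109 genes tested (grey) and the 10 marker genes (red), with dotted lines at 2-fold. Of all genes, 305 lie above the upper line and 105 below the lower one, and the 10 marker genes lie on both sides, 6 of them between the lines.

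Genes of other roles in macrophages and leukocytes were set beside the 10. Of 26 further macrophage markers, 20 could be tested, and 3 were more than 2-fold higher and 1 was more than 2-fold lower, beside 2.52% and 0.867% of all genes. The higher ones were Marco, a scavenger receptor, from 1.96 to 24.4 FPKM, Cd14, the co-receptor for bacterial lipopolysaccharide, from 36.6 to 252 FPKM, and Aif1, which encodes the actin-binding protein Iba1, from 2.93 to 12.9 FPKM. The lower one was Mrc1, the mannose receptor, from 3.76 to 1.27 FPKM. The highest levels of that list were those of Gpnmb, at 419 and 483 FPKM, and Lgals3, at 298 and 304 FPKM, genes that other cells express as well. The complement genes C1qa, C1qb and C1qc, named after their values were seen, are made mainly by macrophages. They were at 45.03, 42.4 and 45.6 FPKM with HBS and at 40.9, 45.5 and 42.9 FPKM with PC-NVs.

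Of 20 further genes expressed across leukocytes, 17 reached 1 FPKM in at least one library. Of these, 3 (Vav1, Was and Dock2, the latter pair named after their values were seen) did so with PC-NVs alone. By any amount, 16 of the 17 were higher with PC-NVs and 1 was lower, beside 48.3% and 51.7% of all genes. Vav1, Was and Dock2 could only count as higher, because they passed the filter through PC-NVs alone. The median log2 difference of the 17 was 0.41, which is the value of Was, and that of all genes was -0.01. More than 2-fold higher were 3 and more than 2-fold lower 0, beside 2.52% and 0.867% of all genes. The count of higher genes was 2 where 1 FPKM was required in both libraries. Cd52, a small surface glycoprotein of leukocytes, went from 3.36 to 24.6 FPKM. Rac2, the GTPase of the phagocyte oxidase, went from 1.45 to 9.88 FPKM, and Vav1, an exchange factor for such GTPases, from 0.877 to 3.18 FPKM. The higher-expressed Arhgdib was at 112 and 127 FPKM and Cd53 at 12.02 and 14.7 FPKM. Among the genes upstream of the lineage, Csf1 was at 93.4 and 121 FPKM, and Maf at 15.6 and 12.7 FPKM. Spi1, which encodes PU.1 and was named after its values were seen, was at 7.38 and 10.3 FPKM. Of the 9 Csf1r ligand and macrophage transcription factor genes, only Cebpb passed 2-fold as deposited, beside 2.52% of all genes higher and 0.867% lower. Cebpb went from 88.8 to 182 FPKM, with a log2 difference of 1.03 that fell within 2-fold after quantile normalization or upper-quartile scaling.

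**Figure D4:**
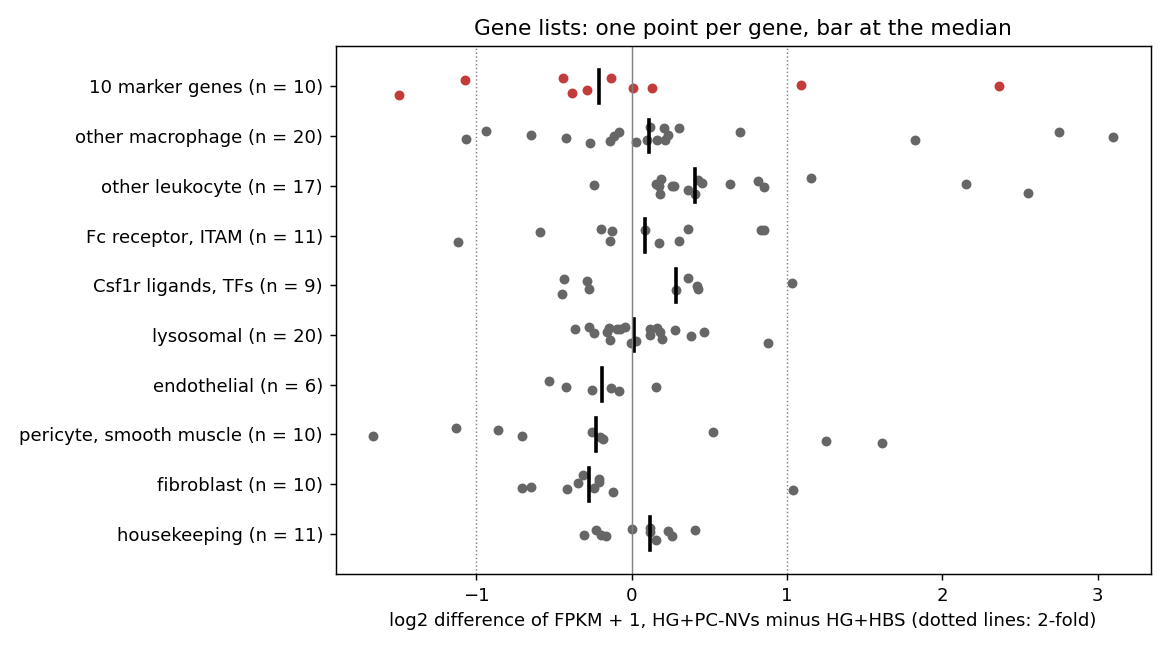
Log2 difference of FPKM + 1, HG+PC-NVs minus HG+HBS, with 1 point per tested gene, for the 10 marker genes (red) and 9 other gene lists (grey), black bars at the medians and dotted lines at 2-fold. The marker genes run from -1.50 to 2.37 around a median of -0.21, and the 20 lysosomal genes all lie between the dotted lines.

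Genes that define lymphocytes and mast cells were low or at 0 in both libraries. All 16 T and NK cell genes, all 8 B cell genes and all 6 mast cell genes were below 1 FPKM, and 10 of the T and NK cell genes, Cd3e, Cd3g, Cd8a, Cd8b1, Cd2, Cd247, Ncr1, Nkg7, Gzma and Prf1, were listed at 0 in both. So were Ms4a1 and Blk of B cells, Fcer1a of mast cells and Cd209a of dendritic cells. The highest T and NK cell genes were Lck at 0.617 and 0.466 FPKM, Cd4 at 0.399 and 0.412 FPKM and Il7r at 0.272 and 0.158 FPKM. The highest B cell genes were Cd22 at 0.415 and 0.337 FPKM, Jchain at 0.143 and 0.125 FPKM and Cd79a at 0.121 and 0.0704 FPKM. Those of mast cells were Cma1 at 0.156 and 0.182 FPKM, Mcpt4 at 0.0865 and 0.202 FPKM and Cpa3 at 0.109 and 0.0632 FPKM. Of 8 dendritic cell genes, 6 were below 1 FPKM in both. The others were Itgax, at 2.17 and 0.808 FPKM, and Clec9a, at 1.31 and 0.549 FPKM, and Zbtb46 was at 0.555 and 0.499 FPKM. Of 12 pericyte and smooth muscle genes, 10 were tested. More than 2-fold higher were 2 and more than 2-fold lower 2, beside 2.52% and 0.867% of all genes, and 6 stayed within 2-fold. Which cells of the cultures expressed them was not measured. The summed level of the 12 genes was 122 FPKM with HBS and 96.0 FPKM with PC-NVs. Acta2 went from 27.6 to 8.02 FPKM, Tagln from 17.3 to 7.34 FPKM, Rgs5 from 1.69 to 7.23 FPKM and Kcnj8 from 7.98 to 20.4 FPKM. Pdgfrb was at 38.4 and 33.7 FPKM and Cspg4 at 20.4 and 12.2 FPKM. The 11 housekeeping genes stayed within 2-fold, with a median log2 difference of 0.12. The highest were Eef1a1 at 4647 and 5052 FPKM, Ppia at 1605 and 1787 FPKM and Rplp0 at 1380.1 and 1499 FPKM. The part of cell composition in the differences of Adgre1, Fcer1g, Fcgr3 and Lsp1 was not tested.

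The surroundings of the 4 genes past 2-fold were examined after their values had been seen. Within 250 kb of Adgre1, 4 other genes were tested, and 2 were more than 2-fold higher, beside 2.52% of all genes. C3, which encodes complement component 3, starts at -130.6 kb from the start of Adgre1 and went from 71.97 to 499 FPKM. Vav1, the leukocyte gene described above, starts at -79.6 kb. It passed the filter of 1 FPKM through the PC-NVs library alone, at 0.877 FPKM with HBS and 3.18 FPKM with PC-NVs. Gpr108 and Trip10, between C3 and Vav1, had log2 differences of 0.12 and -0.08. Around Fcer1g, 0 of 20 tested genes were more than 2-fold higher and 1 was lower, which was Fcgr3, beside 2.52% and 0.867% of all genes. Around Fcgr3, 16 genes were tested. Fcer1g was more than 2-fold higher and Fcgr2b more than 2-fold lower, beside 2.52% and 0.867% of all genes. Around Lsp1, 0 of 5 passed 2-fold, which with so few genes is near those shares of all genes. Prr33 had the largest difference there, -0.97 on the log2 scale.

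**Figure D5:**
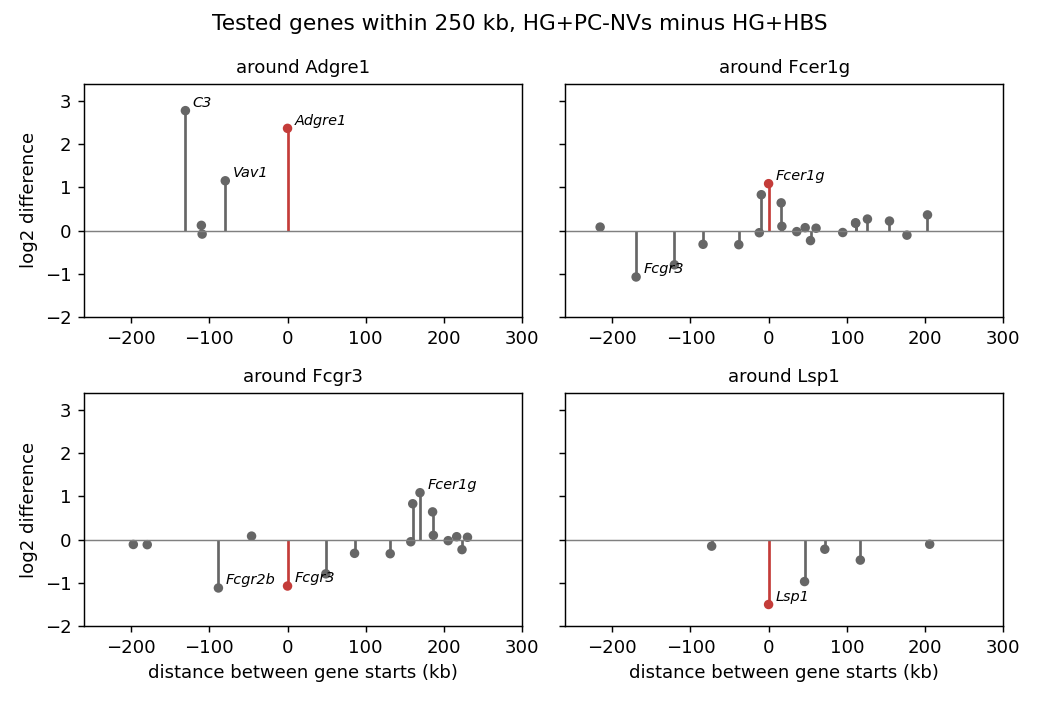
Log2 difference of FPKM + 1, HG+PC-NVs minus HG+HBS (vertical axis), against the distance in kb from the start of Adgre1, Fcer1g, Fcgr3 or Lsp1 (red) to that of each tested gene within 250 kb (grey). Past 2-fold, C3 and Vav1 share the direction of Adgre1 and Fcgr2b that of Fcgr3, while Fcer1g and Fcgr3 point opposite ways.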

How the data were processed

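After trimming, the authors mapped paired reads of 100 nt to mm10 (the build GRCm38) using TopHat. The authors took FPKM from Cufflinks and normalized them with edgeR, in a step named quantile normalization. The authors deposited log2 values of normalized FPKM + 1 in 33299 transcript rows per library. With each library's values sorted by size, 2318 rows differed by more than 0.05 between the libraries. The deposited values thus did not share 1 distribution. Tool versions, the annotation and the strand setting are not given in the sources used here. The log2 scale was read from the values, whose maximum is 13.99.

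Here 2 to the power of each value, less 1, was summed over the rows of a symbol, and libraries were compared as the difference of log2(FPKM + 1). Values were used as deposited, since the rule for summing the rows of a symbol is defined on them. Genes with at least 1 FPKM in at least one library were tested against a 2-fold and a 4-fold limit. Depth is approximate. The most frequent low value of FPKM times length in kb over 2246 genes with 1 annotated transcript longer than 1500 nt was taken as 1 fragment (0.0750 for HBS, 0.0866 for PC-NVs), which gives about 13300000 and 11600000 fragments. Fragments of a gene used its longest protein-coding transcript in GENCODE M21. A gene at 3 fragments or fewer was taken as at the floor.

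The genes and gene lists were chosen with earlier results of these data known. Besides the 10 genes and their near copies, the genes named were, for each list, the 3 with the highest mean level, up to 4 with the largest differences past 2-fold and those listed at 0 in both libraries. Others, such as Pecam1, Cdh5, Pdgfra, Was, Dock2, Hmgxb3, C1qa, C1qb, C1qc, Spi1 and the neighbouring genes, were chosen after their values were seen. The alternatives were quantile normalization, upper-quartile scaling, median centring, a pseudocount of 0.1, the highest row of a symbol, other filters on low values and the 4-fold limit. The calculations were tested on simulated data. Calculations ran in Python 3.11.15 with scipy 1.17.1, pandas 2.3.3 and numpy 2.4.6, and plots in matplotlib 3.10.9. Promoter windows are from RefSeq. Promoter windows of Adgre1, Csf1r, Tyrobp and Lsp1 were not used here.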

Additional observations from a re-analysis of the deposited data

How the results depend on the processing

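The counting interval was placed around the log2(FPKM + 1) difference as deposited. Of 50 alternative log2 differences of the 10 genes, 47 stayed within it, and 0 of the genes past 2-fold changed direction. Across the alternatives Adgre1 ranged from 2.33 to 2.50, Fcer1g from 1.05 to 1.12, Fcgr3 from -1.17 to -1.06 and Lsp1 from -1.54 to -1.34, while Tyrobp ranged from -0.03 to 0.02 and so had no stable sign. The 3 that moved were Lyz2 after quantile normalization (-0.29) and, with the highest row in place of the sum, Ptprc (0.56) and Lsp1 (-1.34). Against the interval of the FPKM ratio itself, this Ptprc value lies inside. Adgre1 after quantile normalization or upper-quartile scaling (2.33 each) lies just below that interval. For genes with 1 transcript row, such as Adgre1, Fcer1g and Fcgr3, the highest row is the sum, so that setting could not move them. The counts of 2 higher and 2 lower past 2-fold kept to 2 and 2 under every normalization, pseudocount and row setting tried. Filters on low values could not change them, since all 10 genes were at or above 1 FPKM in both libraries. With the 4-fold limit they were 1 and 0. With a pseudocount of 0.1, 253 of all genes were more than 2-fold lower in place of 105. That setting also gave 2 lower genes among the further macrophage markers in place of 1, 2 higher Fc receptor and ITAM genes in place of 0, 1 lower neutrophil gene in place of 0 and 2 lower dendritic cell genes in place of 0. After quantile normalization 0 of the Csf1r ligand and transcription factor genes and 0 of the fibroblast genes were more than 2-fold higher, in place of 1 each, and upper-quartile scaling also gave 0 for the first of these lists. With the highest row, 1 Fc receptor and ITAM gene was higher and 1 Csf1r ligand or transcription factor gene was lower, in place of 0 each. The cause was not tested.

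No paired analysis was possible because both conditions hold 1 library, and for that reason no library was left out. Depth limits Ptprc most among the 10 genes, with about 98 fragments in each library.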

Other observations

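Most neutrophil genes were below 1 FPKM. Of 12 such genes found, 9 were below 1 FPKM in both libraries, and Mpo, Retnlg and Ctsg were listed at 0 in both. Camp, which encodes the antimicrobial peptide precursor cathelicidin, was at 0.871 FPKM with HBS and 41.4 FPKM with PC-NVs, from about 9 and 363 fragments. S100a9, a calcium-binding protein of neutrophils and monocytes, was at 0 fragments with HBS and about 36 with PC-NVs (5.96 FPKM). The PC-NVs level was 13.7 times the floor of 3 fragments in the HG+HBS library. The lower bound of the counting interval of the ratio was 10.7. Prtn3, a granule protease gene, was at 1.06 FPKM with HBS and 0.413 FPKM with PC-NVs, from about 14 and 5 fragments. The counting interval of its ratio, PC-NVs over HBS, was 0.116 to 1.21 and spans 1, so no direction is given.

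MHC class II genes, which antigen-presenting macrophages and dendritic cells express, were low. Of 7 such genes, 4 were below 1 FPKM in both libraries, and H2-Ab1 was at 1.03 and 1.12 FPKM. H2-DMa, which helps to load peptides, was at 5.77 FPKM with HBS and 4.202 FPKM with PC-NVs, and H2-DMb1 at 3.63 and 3.38 FPKM.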
